A study of Sus scrofa with 12 samples.

Results

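The genes described here are the major histocompatibility complex (MHC) genes of the pig, which carry the prefix SLA for swine leukocyte antigen, together with B2M, the light chain of the class I molecule. They were chosen by symbol from a list of 10 genes: the class I heavy chains SLA-1, SLA-2 and SLA-3, the class II genes SLA-DRA, SLA-DRB1, SLA-DQA1, SLA-DQB1, SLA-DMA and SLA-DMB, and B2M. Of the 31694 gene rows measured, 9 carried one of these symbols, since no row was named SLA-2 and that gene was dropped. B2M was listed at 0 in every library, so that 8 genes had values above 0, and all 8 passed the filter for testing (at least 0.5 RPKM in at least 3 libraries).

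MHC molecules hold short peptides at the cell surface for T cells to read. A class I molecule is a heavy chain bound to B2M, is made by nearly all nucleated cells, and shows peptides that the proteasome cut inside the cell and that the TAP transporter carried into the endoplasmic reticulum. A class II molecule pairs an alpha chain such as SLA-DRA or SLA-DQA1 with a beta chain such as SLA-DRB1 or SLA-DQB1, and is made mainly by macrophages, dendritic cells and B cells, which load it with peptides from material they took up. SLA-DMA and SLA-DMB form the helper that exchanges peptides on class II inside the cell. In liver, Kupffer cells (the resident macrophages), dendritic cells and sinusoidal endothelium are the known places of class II, and hepatocytes, which make up most of the tissue, are known for low class I. MHC genes are also among the most polymorphic of the genome, and the class I heavy chains are near copies of each other.

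Liver was taken from 3 uncastrated male Jinhua (JH) pigs, a Chinese breed, and 3 uncastrated male Landrace (LD) pigs, a lean European breed, all 70 days old. No treatment, mutation or transgene was involved, each mRNA library came from 1 pig, and the breeds differed in their whole genetic background. The housing, the diet and the health of the animals, and whether pigs of a breed were littermates, are not given in the sources used here. Expression was given as RPKM (reads of a gene scaled to its length and to the total reads of the library), a level per length. The unit is a share of each library, and genes can be set side by side only as far as their reads align equally well. Because whole liver was sequenced, fewer cells of a type and less RNA per cell cannot be told apart.

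Whole reads could be recovered from the steps between low RPKM values. The library totals behind the RPKM values came to 5740000 to 7910000 reads (rounded), fewest in JH1, with 16080 to 17078 genes above 0. These totals were below the clean reads that the authors gave for each library, and the reason was not tested. Hepatocyte markers were very high in all 6 libraries (ALB, the gene for albumin, 27533 to 53893 RPKM), but APOB, also a defining hepatocyte gene, was listed at 0 in all 6, as were 12080 rows in all. A listed 0 therefore does not show that a gene is silent. The typical gene differed between libraries by a scale shift, from -0.19 in LD3 to 0.16 in JH2 (median log2 distance from the gene's mean). JH2 held the highest value of the 6 for 22.8% of the 12993 genes tested, and JH1 for 26.0%.

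Among the MHC genes JH2 stood apart. It held the highest value of the 6 libraries for 8 of 8 genes, and JH1, of the same breed, held the lowest for 5 of 8 (against 13.7% of all tested genes). The summed RPKM of the 8 genes was 723 in JH1, 2280 in JH2 and 819 in JH3, against 1017 in LD1, 1255 in LD2 and 1076 in LD3. When the libraries were brought to a common distribution by quantile normalization, or to a common median, JH2 stayed highest for 6 of 8 genes, LD3 became highest for SLA-DRB1 and SLA-DMA, and JH2 was highest for 2210 and 2080 of the 12993 tested genes under these scalings. That JH2 stood apart was seen in these same values, so it is a description. For each of the 8 MHC genes the breed comparison is given with and without JH2.

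**Figure D1:**
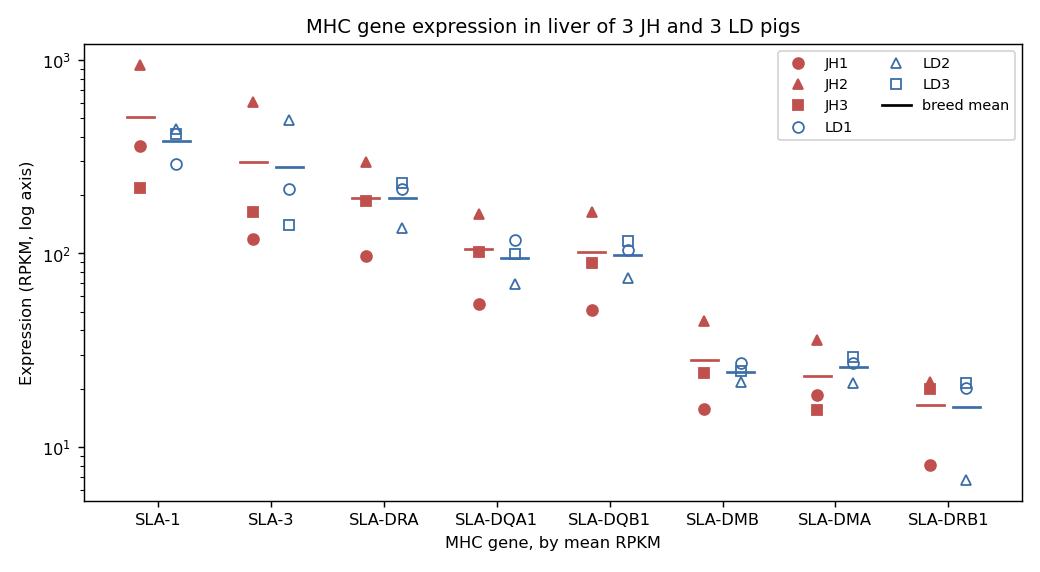
RPKM of the 8 MHC genes above 0, on a log axis, in order of mean level; each point is 1 library (filled red, JH; open blue, LD) and each short line a breed mean. The JH2 triangle is the highest point of every gene, and the values of the breeds overlap for every gene.

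SLA-DRA, the alpha chain of the DR molecule, had the highest level of the class II genes. Its RPKM was 97.2 in JH1, 298 in JH2 and 186 in JH3, and 216 in LD1, 135 in LD2 and 232 in LD3. The JH values therefore enclosed all 3 LD values, with JH1 at the bottom and JH2 at the top. The means were 194 ± 100.5 RPKM in JH and 194 ± 52.1 RPKM in LD (SD, n = 3 pigs a breed, as for all means below). The log2 fold change, JH over LD, came to -0.11 (SE 0.41, adjusted p = 0.918, limma with Benjamini-Hochberg adjustment over all tested genes), and -0.49 without JH2.

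SLA-DRB1, the beta chain that pairs with SLA-DRA, had the lowest mean of the 8 genes over the 6 libraries, although SLA-DMA was below it in JH3. It was measured at 8.08 RPKM in JH1, 21.7 in JH2 and 19.9 in JH3, and at 20.04 in LD1, 6.74 in LD2 and 21.4 in LD3. Hence 4 libraries lay close together and 1 library of each breed, JH1 and LD2, lay well below them. The gap was larger than the counting error: 75 reads in JH1 allow 6.35 to 10.1 RPKM and 86 reads in LD2 allow 5.39 to 8.33 RPKM, while 272 reads in JH2 allow 19.2 to 24.4 RPKM (exact Poisson intervals at 95%, which cover counting error only). The log2 fold change, JH over LD, came to 0.09 (SE 0.51, adjusted p = 0.947, limma), and -0.17 without JH2. In LD2 the RPKM of SLA-DRA was 19.99 times that of SLA-DRB1, against 9.34 to 13.7 times in the other libraries, and the exact permutation test of this ratio between breeds gave a two-sided p of 0.7. The beta chain is the polymorphic chain of DR, and reads that differ from the reference allele can fail to align, so the RPKM of SLA-DRB1 can depend on the alleles that a pig carries; this was not tested.

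SLA-DQA1 and SLA-DQB1 are the alpha and beta chains of the DQ molecule. SLA-DQA1 was at 54.7 RPKM in JH1, 160.1 in JH2 and 102 in JH3, and at 117 in LD1, 69.5 in LD2 and 99.0 in LD3. SLA-DQB1 was at 50.7 RPKM in JH1, 164 in JH2 and 89.0 in JH3, and at 104 in LD1, 75.1 in LD2 and 116 in LD3. The chains of the pair were thus found at nearly the same level, and in both the JH libraries again enclosed the LD libraries. The ratio of SLA-DQA1 to SLA-DQB1 ran only from 0.853 in LD3 to 1.14 in JH3, a range within which the breeds overlapped (exact permutation test, two-sided p = 0.3). The log2 fold change, JH over LD, came to 0.05 (SE 0.39, adjusted p = 0.965, limma) for SLA-DQA1 and -0.10 (SE 0.40, adjusted p = 0.926) for SLA-DQB1, and without JH2 it was -0.32 and -0.53. SLA-DRA stood 1.78 to 2.34 times above SLA-DQA1 in all 6 libraries.

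The peptide exchange pair was lower than the DR alpha and the DQ chains. SLA-DMA was at 18.5 RPKM in JH1, 35.5 in JH2 and 15.4 in JH3, and at 27.0 in LD1, 21.5 in LD2 and 29.1 in LD3. SLA-DMB was at 15.7 RPKM in JH1, 44.6 in JH2 and 24.0 in JH3, and at 27.2 in LD1, 21.6 in LD2 and 24.8 in LD3. In both genes the LD values lay between the lowest and the highest JH value. SLA-DMA had the smallest spread within breeds of the 8 genes (0.47 as log2 SD, against a median of 0.39 over all tested genes), and its log2 fold change was -0.24 (SE 0.33, adjusted p = 0.747, limma), or -0.60 without JH2. For SLA-DMB the log2 fold change was 0.07 (SE 0.36, adjusted p = 0.941), and -0.33 without JH2. The ratio of SLA-DMB to SLA-DMA was less even than that of the DQ chains, from 0.848 in JH1 to 1.55 in JH3.

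The class I heavy chain SLA-1 had the highest mean of the 8 genes. Its RPKM was 359 in JH1, 946 in JH2 and 219 in JH3, and 289 in LD1, 438 in LD2 and 412 in LD3. JH2 was far above the other 5 libraries, and JH3 was the lowest. The means were 508 ± 386 RPKM in JH and 380 ± 79.5 RPKM in LD, and the log2 fold change was 0.17 (SE 0.48, adjusted p = 0.886, limma), which turned to -0.41 without JH2. SLA-3, the other classical heavy chain with a row, was at 119 RPKM in JH1, 610.0 in JH2 and 164 in JH3, and at 216 in LD1, 488 in LD2 and 141 in LD3. Here JH2 and LD2 were both high, and the other 4 libraries lay at or below 216 RPKM. SLA-3 had the widest spread within breeds of the 8 genes (1.09 as log2 SD, larger than in 95.1% of all tested genes), and its log2 fold change was -0.11 (SE 0.63, adjusted p = 0.949), or -0.81 without JH2.

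How reads were shared among class I genes is uncertain, because short single reads from one heavy chain can match another, and how the counting treated such reads is not given in the sources used here. SLA-3 stood at 0.331 of the RPKM of SLA-1 in JH1 and 0.342 in LD3, but at 1.11 in LD2, and the breeds did not separate (exact permutation test, two-sided p = 0.6). A further row, LOC100513601, is not among the listed genes but has SLA-1 among its synonyms in RefSeq; it was taken up after its values were seen. It was at 59.7 RPKM in JH1, 201 in JH2 and 51.1 in JH3, and at 375 in LD1, 375 in LD2 and 75.6 in LD3. LD1 and LD2 were thus above all JH libraries, and LD3 was among the JH values. Its log2 fold change of -1.37 (SE 0.69, 95% interval -2.92 to 0.18) was not called, with an adjusted p of 0.338 (limma). Over the 3 class I rows together, the JH libraries held 867 (JH1), 2864 (JH2) and 710.0 (JH3) RPM (reads scaled to the total reads of the library, without length) and the LD libraries 1402 (LD1), 2110 (LD2) and 1013 (LD3), so that the breeds overlapped. LOC100513601 took 10.4% to 10.9% of these reads in the 3 JH libraries, 11.3% in LD3, 40.6% in LD1 and 26.9% in LD2. Whether this share follows the alleles of the pigs, the level of each gene or the alignment was not tested.

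**Figure D2:**
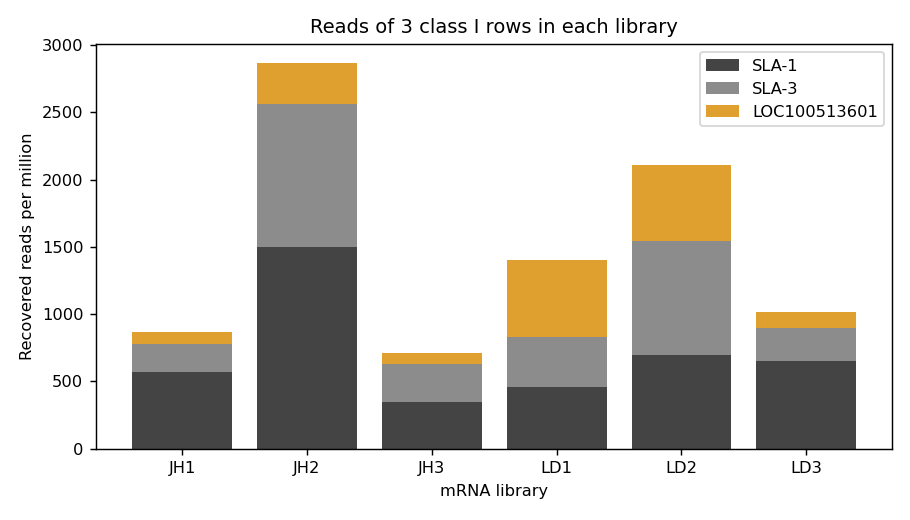
RPM (recovered reads scaled to library total) in SLA-1, SLA-3 and LOC100513601, stacked for each mRNA library. JH2 and LD2 have the highest totals (2864 and 2110), and the part of LOC100513601 is widest in LD1 and LD2.

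B2M, which every class I molecule needs, was listed at 0 in the 6 libraries. The same was found for PSMB9 and PSMB10 (inducible proteasome subunits), NLRC5 (the class I transactivator) and RFXANK (a subunit of the factor that binds class II promoters), and for APOB as given above. RefSeq (assembly Sscrofa11.1, which is not the build of the files) places 2 genes under the symbol B2M. Whether that bears on the 0 was not tested, and no breed comparison of B2M could be made.

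In the comparison of the breeds, 0 of the 8 MHC genes were called at an adjusted p under 0.05 with a log2 fold change beyond 1 in either direction, where 2.39% of all tested genes were called (310 of 12993, by limma). At an unadjusted p under 0.05 the count was likewise 0 of 8, against 17.9% of all tested genes, and in 0 of 8 did the 3 values of one breed lie all above or all below those of the other, against 23.4%. The log2 fold changes ran from -0.24 in SLA-DMA to 0.17 in SLA-1, with 4 above 0 and 4 below, and their median was -0.02, beside 0.04 over all tested genes. The adjusted p-values ran from 0.747 to 0.965. The spread within breeds was the larger quantity in all 8: as log2 SD its median was 0.64, against 0.39 over all tested genes. These results do not show equal expression, since the 95% interval of the log2 fold change reached past 1 in either direction for SLA-1 (-0.90 to 1.25), SLA-3 (-1.52 to 1.30), SLA-DRA (-1.03 to 0.81), SLA-DRB1 (-1.06 to 1.24) and SLA-DQB1 (-1.01 to 0.81). It stayed within 1 for SLA-DQA1 (-0.84 to 0.93), SLA-DMA (-0.99 to 0.50) and SLA-DMB (-0.75 to 0.89). With 3 pigs a breed the exact permutation test of a single gene cannot go below a two-sided p of 0.1, and it gave 0.6 to 0.9 for the 8 genes.

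**Figure D3:**
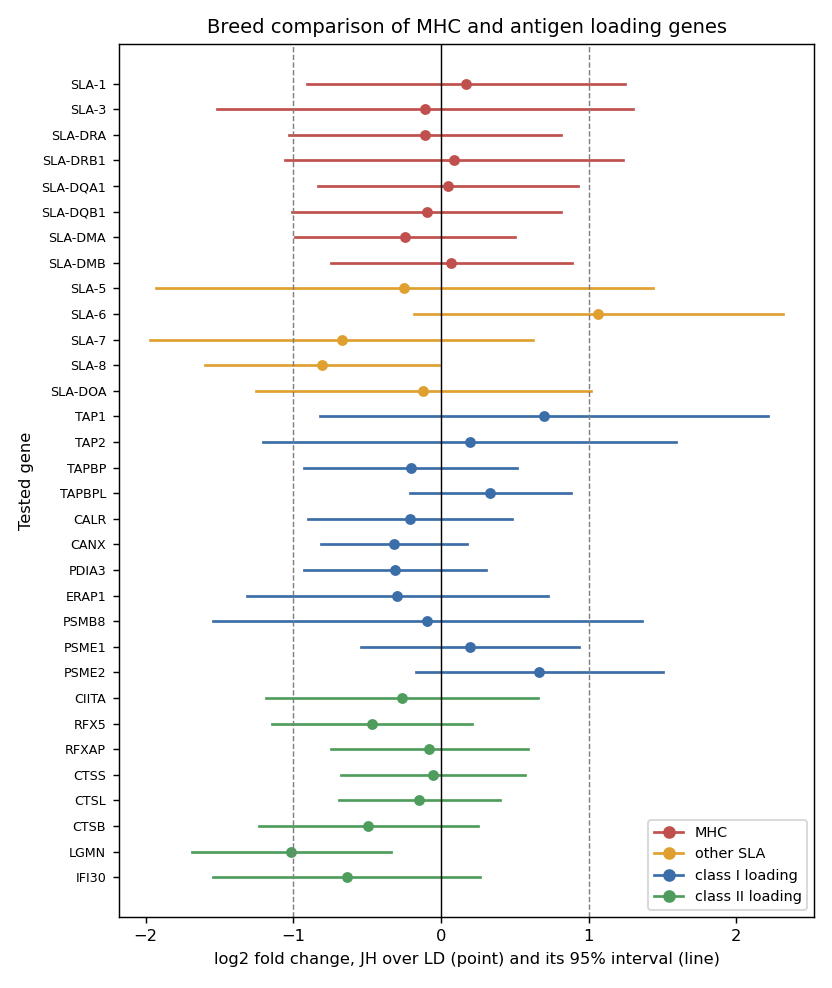
Log2 fold change of JH over LD (point) with its 95% interval (line) for the MHC genes, the other SLA genes and the class I and class II loading genes; dashed lines mark a log2 fold change of -1 and 1. The 8 MHC genes lie between -0.24 and 0.17 with intervals across 0, and LGMN at -1.01 is the loading gene farthest from 0.

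The direction depended on single pigs of either breed. Without JH2 the log2 fold change was below 0 in 8 of 8 MHC genes, from -0.81 in SLA-3 to -0.17 in SLA-DRB1, with a median of -0.45 and a lowest adjusted p of 0.380 (limma). Without JH1 it was above 0 in 7 of 8, with a median of 0.34, and SLA-DMA at -0.13 was the exception. Leaving out an LD library also moved the balance: 3 of 8 were above 0 without LD1, 2 of 8 without LD2 and 6 of 8 without LD3. In none of the 6 fits with a library left out was an MHC gene called.

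**Figure D4:**
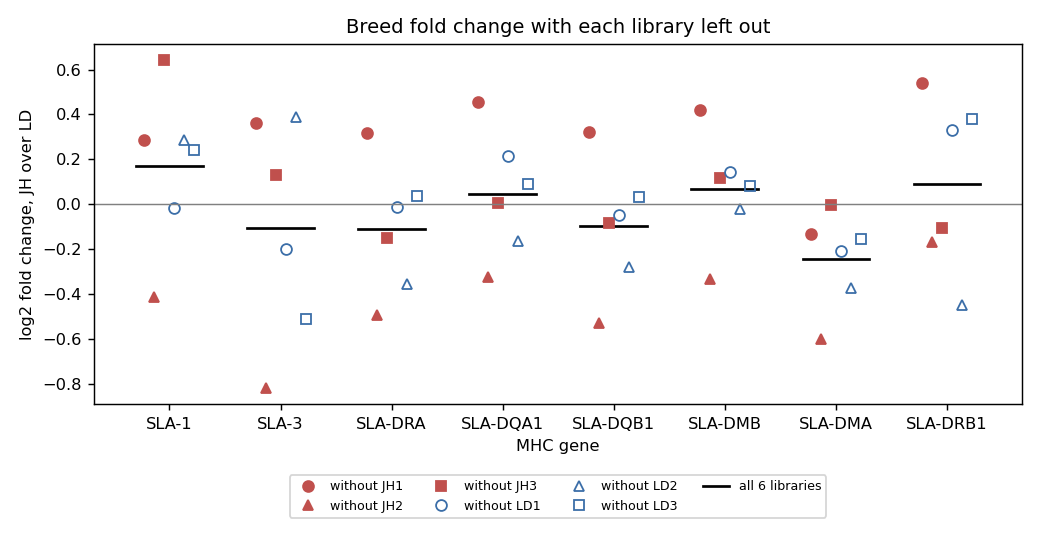
Log2 fold change of JH over LD for each MHC gene with all 6 libraries (black line) and with each library left out (points, filled red for a JH library left out and open blue for an LD library). Leaving out JH2 puts all 8 genes below 0, and leaving out JH1 puts 7 above 0.

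The RPKM values fell in steps, an order that reads lost or moved between rows can also change, which was not tested. Taken over the 6 libraries, the mean RPKM was 444 for SLA-1, 289.7 for SLA-3, 194 for SLA-DRA, 100.4 for SLA-DQA1, 99.8 for SLA-DQB1, 26.3 for SLA-DMB, 24.5 for SLA-DMA and 16.3 for SLA-DRB1. SLA-DRA was above SLA-DQA1, and SLA-DQB1 above SLA-DMB, in 6 of 6 libraries, for each of which the exact paired permutation test gave a two-sided p of 0.0312, the smallest that 6 libraries allow, or 0.109 after adjustment over the 7 neighbouring pairs. SLA-1 was above SLA-3 in 5 of 6, and SLA-DMA above SLA-DRB1 in 5 of 6 (adjusted p = 0.109 for both, exact paired permutation test). SLA-3 and SLA-DRA changed places between libraries, as did SLA-DQA1 and SLA-DQB1, each first in 3 of 6, and SLA-DMB was above SLA-DMA in 4 of 6, so that the order within these pairs did not go beyond their spread (adjusted p from 0.525 to 0.844). No neighbouring pair passed 0.05 after adjustment. The pairs and their order were taken from the same 6 libraries, so these p-values describe the order and are no independent test of it.

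Within the class II genes the pattern over the 6 pigs was close. After each gene was centred on its own mean log2 level, SLA-DQB1 differed from SLA-DRA by 0.08 log2 units per library on average, SLA-DQA1 by 0.10, SLA-DMB by 0.19, SLA-DRB1 by 0.28 and SLA-DMA by 0.28, while the median tested gene differed by 0.59. SLA-1 differed from SLA-DRA by 0.63 and SLA-3 by 0.71, above that median. This distance also grows with the size of a gene's changes, and SLA-1 and SLA-3 varied more within breeds than SLA-DRA. Distances from SLA-1 were 0.38 for SLA-DMA, 0.46 for SLA-DMB, 0.55 for SLA-DQB1 and SLA-3, 0.58 for SLA-DQA1 and 0.89 for SLA-DRB1. The median tested gene was 0.59 from SLA-1. Outside the MHC, the tested genes nearest to SLA-DRA were TRIM14 (0.11), GIMAP4 (0.12), a row whose symbol had turned into a date (0.12) and EVI2A (0.14). GIMAP4, a GTPase of lymphocytes, was at 10.999 RPKM in JH1, 33.7 in JH2 and 19.2 in JH3, and at 26.1 in LD1, 19.2 in LD2 and 24.6 in LD3. The genes nearest to SLA-1 were MAP4K1, a kinase of blood cells (0.08), LOC100522150 (0.16), the chemokine CCL4 (0.18) and the macrophage gene AIF1 (0.19). MAP4K1 was at 2.81 RPKM in JH1, 6.32 in JH2 and 1.58 in JH3, and at 1.999 in LD1, 3.19 in LD2 and 2.69 in LD3. These are descriptions over 6 libraries, and all genes of a library share its depth and scale.

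Of the 22 further SLA genes looked for, 6 had a row and 5 were tested, none of them called and 1 with an unadjusted p under 0.05. Beside these counts, and those of the lists below, stand the shares of 2.39% and 17.9% over all tested genes (limma). SLA-5 was at 6.77 RPKM in JH1, 82.8 in JH2 and 22.9 in JH3, and at 28.7 in LD1, 18.5 in LD2 and 40.8 in LD3, a 12.2-fold span from the lowest to the highest library. SLA-6, a non-classical class I gene, was at 9.02 RPKM in JH1, 52.3 in JH2 and 12.4 in JH3, and at 8.64, 8.61 and 8.43 RPKM in LD1, LD2 and LD3. All JH values of SLA-6 were above all LD values, but 2 of the JH values only slightly so, and the log2 fold change of 1.07 (SE 0.55) had an adjusted p of 0.355 (limma). SLA-7 was highest in LD2, at 17.3 RPKM, with 15.3 in JH2. SLA-8, at 4.05, 8.99 and 3.66 RPKM in JH1, JH2 and JH3 and at 8.28, 10.6 and 8.35 RPKM in the LD libraries in the same order, had a log2 fold change of -0.81 (SE 0.35, adjusted p = 0.272). SLA-5 to SLA-8 are class I genes, and the uncertainty of shared reads holds for them too.

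The list of genes that supply and load class I peptides held 15 genes, of which 14 had a row and 11 were tested, with 0 called and 0 at an unadjusted p under 0.05. The most abundant were the chaperones CALR, PDIA3 and CANX and the proteasome activator PSME1. CALR was at 446 ± 107 RPKM in JH and 525 ± 173 in LD, PDIA3 at 400.3 ± 115 and 488 ± 73.6, CANX at 99.7 ± 2.62 and 125 ± 14.0, and PSME1 at 167 ± 75.1 and 137 ± 14.6. None of these 4 was called, and their log2 fold changes lay between -0.32 and 0.20. JH2 was the highest library for 8 of the 11 tested genes (6 of 11 under quantile normalization and 7 of 11 under median scaling). CALR, PDIA3 and CANX were the exceptions before rescaling. TAP1 and PSMB8, which lie among the class II genes and were picked out after their values were seen, had the same library on top. TAP1, a subunit of the peptide transporter, was at 0.637 RPKM in JH1, 5.76 in JH2 and 1.24 in JH3, and at 1.44 in LD1, 0.829 in LD2 and 0.851 in LD3. PSMB8, a proteasome subunit induced by interferon, was at 1.23 RPKM in JH1, 8.27 in JH2 and 1.20 in JH3, and at 2.04 in LD1, 2.96 in LD2 and 2.58 in LD3.

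The class II loading and control list held 10 genes, of which 9 had a row (CD74, the invariant chain, had none) and 8 were tested. Of these 8, 0 were called and 1 had an unadjusted p under 0.05. All 8 had a log2 fold change below 0, with a median of -0.37, and JH2 was highest for 2 of them, the protease CTSS and, named after its values were seen, IFI30 (0 of 8 under both other scalings). LGMN, an endosomal protease, was at 359 RPKM in JH1, 417 in JH2 and 253 in JH3, and at 498 in LD1, 829.9 in LD2 and 756 in LD3. All 3 LD values were above all JH values, but the log2 fold change of -1.01 (SE 0.30) had an adjusted p of 0.124 (limma). Of the alternatives run, only quantile normalization called LGMN, at -1.18 with an adjusted p of 0.0426. CTSL, CTSB and CTSS, the cathepsins of the same compartment, had log2 fold changes of -0.15, -0.49 and -0.05. CIITA, the transactivator that switches class II genes on, was taken up after its values were seen. CIITA was at 0.744 RPKM in JH1, 1.53 in JH2 and 1.40 in JH3, and at 1.81 in LD1, 1.75 in LD2 and 0.914 in LD3, from 13 to 42 reads per library. This gave a log2 fold change of -0.26 (adjusted p = 0.777, limma). JH1 was the lowest library, as for 5 of the 8 MHC genes, but the highest was LD1 and not JH2.

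Interferon gamma is the main known inducer of both MHC classes. Of its signal and response genes 12 were tested, with 0 called, 1 at an unadjusted p under 0.05 (SOCS1, an inhibitor of the signal, named after its values were seen, with a log2 fold change of 1.09 and an adjusted p of 0.140, limma) and JH2 highest for 10 of the 12 (9 of 12 under both other scalings). CXCL10, a chemokine that interferon induces, was at 8.17 RPKM in JH1, 227 in JH2 and 102 in JH3, and at 48.9 in LD1, 14.9 in LD2 and 22.8 in LD3. GBP1, an interferon-induced GTPase, was at 7.44 RPKM in JH1, 45.0 in JH2 and 17.98 in JH3, and at 18.7 in LD1, 12.4 in LD2 and 22.4 in LD3. Like most of the MHC genes, both had their top value in JH2 and their bottom value in JH1. IRF1 was at 41.4 RPKM in JH2 and at 17.2 to 29.3 in the other 5 libraries, whereas JAK1, a kinase of the receptor, was lowest in JH2 (5.40 RPKM, against 10.23 to 19.8). IFNG itself, under the filter for testing, was at 3.42 RPKM in JH2, at 0.393 in LD1 and listed at 0 in the other 4 libraries.

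Most tested leukocyte and T or NK cell markers also had their top value in JH2. The leukocyte genes PTPRC, LCP1 and LAPTM5 were highest in JH2 and lowest in JH1 in 3 of 3 cases, with a summed RPKM of 46.4 in JH1, 123 in JH2 and 60.2 in JH3, and of 59.9 to 80.3 in LD (CORO1A was listed at 0). The 7 T or NK cell markers summed to 20.9 RPKM in JH1, 100.1 in JH2 and 23.1 in JH3, and to 37.0 to 44.6 in LD, with JH2 highest for 6 of 7 and CD4 highest in LD3. NKG7, a granule gene of NK and cytotoxic T cells, was at 34.7 RPKM in JH2 and at 7.30 to 12.3 in the others, and CD2 was at 20.7 RPKM in JH2 and at 3.40 to 7.90 in the others. CD4 was the gene of this list nearest to a call between breeds, at 2.58 ± 0.863 RPKM in JH and 8.58 ± 4.23 in LD (log2 fold change -1.64, SE 0.37, adjusted p = 0.0586, limma). The part of these cells in the JH2 values of the MHC genes was not tested.

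For the cell types best known for class II the values differed by type. The macrophage markers, 8 of them tested, summed to 1188 RPKM in JH1, 2089 in JH2 and 893 in JH3, and to 1323 to 1546 in LD. JH2 was highest for 5 of 8 (3 of 8 under quantile normalization and 4 of 8 under median scaling), among them C1QA (705 RPKM, against 249 to 486 in the others) and C1QC (909 RPKM, against 356 to 499). CD14 was highest in LD2 and, named after their values were seen, VSIG4 in LD3 and CSF1R in JH3. CD163, a defining marker of Kupffer cells, was listed at 0. Of the B cell markers, 3 were tested and JH2 was highest for 2 of them, with CD79A at 5.12 RPKM in JH2 and at 1.87 to 2.85 in the others. The 3 dendritic cell markers summed to 1.00 to 2.13 RPKM in JH and 1.69 to 1.93 in LD. Of these, 2 were tested, at 4 to 49 reads per library, with JH1 lowest for both. JH2 was highest for 2 of 2 (2 of 2 under quantile normalization and 0 of 2 under median scaling). Sinusoidal endothelium markers summed to 161 to 271 RPKM in JH and 201 to 260 in LD, with JH2 highest for 1 of 5. Most of this sum was CLEC4G. All 5 had a log2 fold change below 0. PECAM1 was at 15.2 to 16.1 RPKM in JH and 25.7 to 30.1 in LD (log2 fold change -0.81, adjusted p = 0.0988, limma). The other markers of this list lay between -0.48 and -0.11. Hepatocyte markers summed to 44350 to 49600 RPKM in JH and 63370 to 80870 in LD, with JH2 highest for 0 of 5, and the 2 erythroid markers to 90.0 to 122 RPKM in JH and 212 to 393 in LD. Of all these markers 1 was called, HBB, a beta globin gene (log2 fold change -1.39, adjusted p = 0.0459, limma), and it lost the call when any 1 library other than JH3 was left out, with adjusted p-values from 0.0889 to 0.143. HBB also lost it with a pseudocount of 0.01 (adjusted p = 0.0560, limma) and without the filter (adjusted p = 0.0673). The part of these breed differences in the MHC comparison was not tested.

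**Figure D5:**
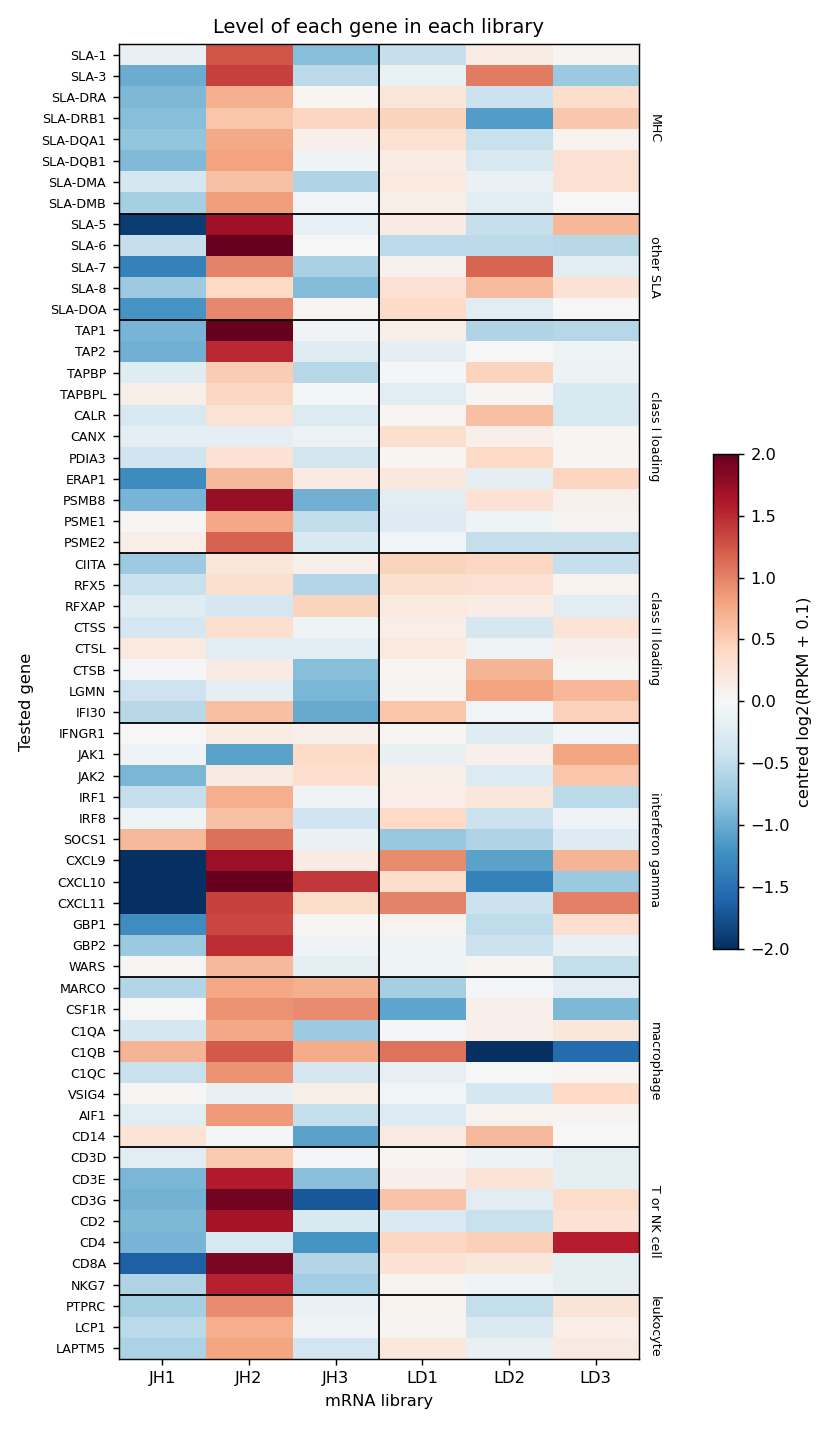
Centred log2(RPKM + 0.1) of each tested gene (rows, by list) in each mRNA library (columns); red is above and blue below the gene's own mean over the 6 libraries, and the scale ends at -2 and 2. The JH2 column is above the mean for all 8 MHC genes and for most interferon gamma, T or NK cell and leukocyte genes, and is the highest column for 2 of the 8 class II loading genes.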

How the data were processed

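Liver mRNA libraries of 3 JH and 3 LD pigs were analysed, grouped by the breed in the labels. The authors aligned 50 bp single reads to the Sus scrofa 10.2 genome with Tophat2 2.0.13, used gfold for the counts and deposited an RPKM value for each gene in each library. Reads that fit several near-identical genes, or differ from the reference allele, can be lost or moved between rows in such values. No SLA sequence or coordinate is printed, because no genome of that build was used here. The miRNA files were not used, and some genes of the lists are not reported here. Of the identifiers, 24 had turned into dates.

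log2(RPKM + 0.1) values of genes with at least 0.5 RPKM in at least 3 libraries were compared with limma 3.58.1 (R 4.3.3; moderated test with a trend, two-sided, breed as the single term, Benjamini-Hochberg adjustment over 12993 genes). On this scale the change of a low gene is understated. Calls needed an adjusted p under 0.05 and a log2 fold change beyond 1, the limits of the study, whose DEGseq test needs counts. Single values and ratios were compared by exact permutation (scipy 1.17.1). Reads were recovered as whole multiples of the smallest RPKM step (98.7% of low genes gave a whole length), and the procedures were tested on simulated data. Intervals cover counting error only.

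The genes and lists were chosen with earlier results of these data known. Named were all listed MHC genes with a row and, from each other list, called genes, the 4 with the highest mean RPKM and regulators or defining markers listed at 0 or under the filter; like genes were the 4 nearest to SLA-DRA and to SLA-1. The alternatives were pseudocounts of 1 and 0.01, no filter, quantile normalization, median scaling, no fold limit, a replicate block and each library left out.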

Additional observations from a re-analysis of the deposited data

How the results depend on the processing

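The count of 0 called MHC genes held under all alternatives run, with a lowest adjusted p of 0.377 (limma, without JH3). Of 96 refitted fold changes 77 kept their sign and 19 changed it, and none had passed the test. Some of these signs could not change, since leaving out the filter or adding the replicate block gives the same fold change by design. The pseudocounts of 1 and 0.01 moved the fold changes little, so the 77 are no measure of stability. Under quantile normalization the log2 fold change turned to -0.0766 in SLA-DMB, -0.10 in SLA-DQA1 and -0.0084 in SLA-DRB1. With 1 library left out it ranged from -0.41 to 0.64 in SLA-1, -0.81 to 0.39 in SLA-3, -0.49 to 0.32 in SLA-DRA, -0.45 to 0.54 in SLA-DRB1, -0.32 to 0.45 in SLA-DQA1, -0.53 to 0.32 in SLA-DQB1, -0.60 to -0.0005 in SLA-DMA and -0.33 to 0.42 in SLA-DMB. The 310 calls over all genes became 199 with a pseudocount of 0.01, 200 without the filter (19614 genes tested), and 79 to 406 with 1 library left out (164 without JH1, 150 without JH2, 79 without LD1, 114 without LD2 and 149 without LD3), each of which fits fewer samples. The 19 class I and class II loading genes gave 0 calls, except 1 (LGMN) under quantile normalization. Correlations of the deviations of same-numbered libraries were -0.02, 0.05 and 0.18, not all above 0.1, so the numbers were not taken as pairs, although JH3 and LD3 were both shifted down over all genes (-0.17 and -0.19) and the other 4 up; with the replicate block 253 genes and 0 MHC genes were called (lowest adjusted p 0.699), and HBB lost its call (adjusted p 0.0527). The MHC genes had 75 to 11640 recovered reads per library, and with 1 library a pig the spread between pigs and that between library preparations cannot be told apart. The cause of the other moves was not tested.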

Other observations

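The class II genes lie together in the genome, and their unlike neighbours did not all share the JH2 pattern. In the RefSeq gene order (assembly Sscrofa11.1, used for order only), the block from SLA-DRA to SLA-DOA holds 25 genes, of which 17 had a row and 13 were tested. Of these 13, 0 were called and 2 had an unadjusted p under 0.05 (limma), beside 2.39% and 17.9% of all tested genes. BRD2, a chromatin reader in this block that is no antigen presentation gene and was picked after its values were seen, was at 34.2 RPKM in JH1, 34.1 in JH2 and 25.8 in JH3, so that JH1 and JH2 were level where SLA-DRA was at 97.2 and 298 RPKM. SLA-DOA, an inhibitor of peptide exchange that was likewise picked after its values were seen, was at 0.720 RPKM in JH1, 3.53 in JH2 and 1.81 in JH3, and at 2.33 in LD1, 1.51 in LD2 and 1.76 in LD3; JH1 was again the lowest library and JH2 the highest.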
